A study of Mus musculus with 43 samples.

Results

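The 39 genes described here encode the machinery that brings secreted and membrane proteins into the endoplasmic reticulum (ER), folds them there, discards those that fail, and senses the load. They comprise 11 chaperones and co-chaperones, 4 disulfide isomerases, 7 genes of ER-associated degradation, 7 of the translocon and its associated complex, 4 of the signal peptidase, 1 COPII coat gene and 5 sensors and transcription factors of the unfolded protein response. The members were chosen by symbol and found by Entrez gene ID: all 39 are among the 24475 IDs of the deposited table, and all 39 passed the filter on low counts that left 15598 genes. Lung RNA was sequenced after exposure to the airborne allergen house dust mite (HDM), with or without an antibody against IL-33, a cytokine that barrier cells release on injury. All 43 mice, the saline mice included, carried the Il33hu/hu genotype, in which the mouse Il33 gene is replaced by the human one, on the mixed strain C57BL/6NTac (75%) / 129S6SvEvTac (25%). There were 15 mice that received anti-IL-33 antibody and 4 that received an isotype control antibody during 15 weeks of HDM, 7 given saline, 10 given HDM for 4 weeks without antibody and 7 given HDM for 15 weeks without antibody. The labels give no time for the saline mice, no age or sex, and no antibody dose or schedule, and each library is taken as 1 mouse.

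As background, a nascent secretory protein enters the ER through the Sec61 channel, loses its signal peptide to the signal peptidase, and folds with the help of the Hsp70 chaperone BiP (Hspa5), the lectins calnexin and calreticulin, and the disulfide isomerases. Misfolded chains are handed to the Hrd1 ligase complex (Syvn1 and Sel1l) and degraded. When unfolded protein accumulates, the sensors IRE1 (Ern1), PERK (Eif2ak3) and ATF6 raise the transcription of these genes, through the factors XBP1, ATF4 and cleaved ATF6. Plasma cells, which secrete antibody, are known for very high levels of the whole pathway, and in lung the mucus-secreting goblet cell and the surfactant-secreting type II cell also use it heavily.

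A promoter element of the ER stress response was found in 8 of the members. The classical ER stress response element, ERSE, is CCAAT, 9 bases of any kind, then CCACG, and is bound by NF-Y with ATF6 or XBP1. It was searched on both strands of RefSeq promoters (GRCm38.p6, 250 bases before to 50 after the start site). Of the 31 members with a promoter entry, 8 held it (25.8%), against 37 of 27025 genes (0.137%), the members included. The 8 were 6 chaperones, the isomerase Pdia6 and the ligase Syvn1. Their sites are shown so that the values of these genes, given further on, can be read beside them. Each is written 5′ to 3′ in the direction of CCAAT to CCACG, with those fixed bases in capitals and the spacer in lower case.
Hspa5 (chr2:34772025-34772043, + strand): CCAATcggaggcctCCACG
Hsp90b1, nearer site (chr10:86705533-86705551, + strand): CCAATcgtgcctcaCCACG
Hsp90b1, farther site (chr10:86705638-86705656, - strand): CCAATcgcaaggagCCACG
Calr (chr8:84847075-84847093, + strand): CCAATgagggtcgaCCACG
Canx (chr11:50325800-50325818, - strand): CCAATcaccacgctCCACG
Dnajc3 (chr14:118937827-118937845, + strand): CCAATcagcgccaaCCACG
Creld2 (chr15:88819520-88819538, - strand): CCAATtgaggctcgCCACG
Pdia6 (chr12:17266491-17266509, + strand): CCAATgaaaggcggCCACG
Syvn1 (chr19:6046532-6046550, + strand): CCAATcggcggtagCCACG
The spacer differed between the sites, and the first base of the element lay at -212 to -44 relative to the start site. On the gene's own strand the element read forwards in Hspa5, Canx, Dnajc3, Pdia6, Syvn1 and the farther Hsp90b1 site, and backwards in Calr, Creld2 and the nearer Hsp90b1 site.

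The promoters of Hspa5 and Creld2 are given whole because they belong to a strongly expressed and a strongly changing member. The element is in capitals, and in Creld2 it appears as its reverse complement.
Hspa5 (chr2:34771840-34772139, + strand): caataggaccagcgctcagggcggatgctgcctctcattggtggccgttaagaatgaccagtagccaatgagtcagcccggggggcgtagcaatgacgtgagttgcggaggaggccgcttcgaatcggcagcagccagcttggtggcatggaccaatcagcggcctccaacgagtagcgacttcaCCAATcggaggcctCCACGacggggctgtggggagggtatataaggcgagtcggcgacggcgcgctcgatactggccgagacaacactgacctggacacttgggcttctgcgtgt
Creld2 (chr15:88819396-88819695, + strand): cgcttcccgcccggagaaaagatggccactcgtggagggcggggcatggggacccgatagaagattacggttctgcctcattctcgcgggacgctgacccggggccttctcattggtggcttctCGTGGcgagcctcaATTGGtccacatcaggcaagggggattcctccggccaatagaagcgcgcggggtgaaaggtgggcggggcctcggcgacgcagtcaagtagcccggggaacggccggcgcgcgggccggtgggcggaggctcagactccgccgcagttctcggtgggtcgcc
The related element ERSE-II (ATTGGNCCACG) was found in Dnajb11 and Herpud1, against 0.044% of genes, the shorter ATF6 and XBP1 core TGACGTGG in Sec24d, against 0.714% of genes, and the C/EBP-ATF composite TGATGNAAN in Herpud1, against 4.5% of genes; no site of 1 of these motifs lay inside another in the members. A match is a description of the letters in this window and was not tied to any factor's binding here.

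The libraries held 4.80 to 12.6 M counts each. Values below are CPM, counts per 1 M library counts, after TMM scaling of the library sizes, and each difference is a log2 ratio ± SE from edgeR's quasi-likelihood fit to all 43 libraries, with p adjusted by Benjamini-Hochberg over all tested genes and called below 0.05. The sample numbers in the titles form 2 ranges (22 and 21 libraries), which enter the fit as a term; the labels do not say what they stand for. Defining markers of lung were present: 6 markers summed to 17332 to 51191 CPM over all libraries. One 15-week HDM library (replicate 1) and one 4-week HDM library (replicate 3) lay apart from their groups, and counts that turn on them are given with and without them. Since these are whole lungs, a change in the number of cells of a type and a change in RNA per cell cannot be told apart.

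Per kilobase of exon, the level of the members in 15-week HDM lungs spanned 5.27 CPM per kb for Ern1 to 419.9 CPM per kb for Calr, the calcium-binding lectin chaperone. The next levels per kb there were 395 for Hsp90b1 (GRP94), 277 for P4hb (protein disulfide isomerase) and 249 for Hspa5. Without the 15-week library that stands apart the order turned, with 422 CPM per kb for Hsp90b1, 366 for Calr, 264 for Hspa5 and 259 for P4hb. In saline lungs Calr and Hsp90b1 also stood highest, at 189 and 184 CPM per kb, and Ern1 lowest, at 4.48 CPM per kb. The summed level of all 39 members had a median of 8593 CPM in anti-IL-33 lungs, 10664 CPM in isotype lungs, 6149 CPM in saline lungs, 9219 CPM in 4-week HDM lungs and 11367 CPM in 15-week HDM lungs. Lungs given HDM for 15 weeks without antibody started at 10186 CPM, above the highest saline lung at 6775 CPM.

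**Figure D1:**
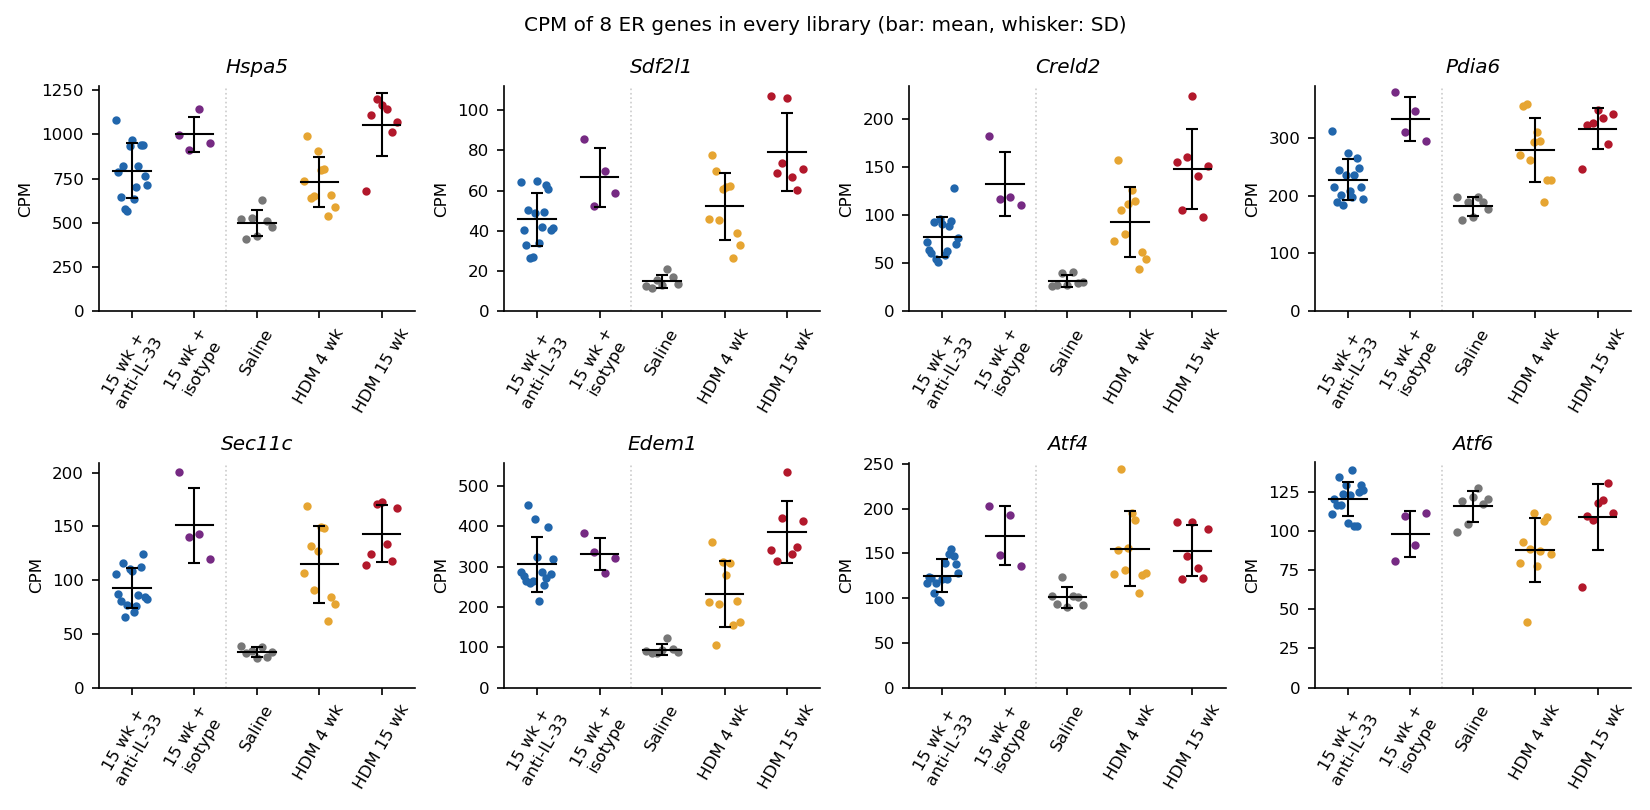
CPM of 8 members in every library (y axis, linear from 0), 1 point a library, with the group mean (bar) and SD (whisker); the vertical line separates the antibody groups from the groups without antibody. Hspa5, Sdf2l1, Creld2, Pdia6, Sec11c and Edem1 sat higher in 15-week HDM lungs than in saline lungs with no overlap, while Atf4 and Atf6 overlapped between those groups.

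After 4 weeks of HDM, 29 of the 39 members were higher than in saline lungs and 1 was lower, where 29.3% of all tested genes were called higher and 27.5% lower. The median log2 difference of the members was 0.55, against 0.01 for all tested genes. All 4 signal peptidase genes and all 4 disulfide isomerases rose, as did 8 of 11 chaperones, 6 of 7 degradation genes, 5 of 7 translocon genes and 2 of 5 unfolded protein response genes. For 11 members every 4-week HDM lung lay above every saline lung, where 9.99% of tested genes did so.

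Sec11c, a catalytic subunit of the signal peptidase, had 61.6 to 169 CPM (median 117) in 4-week HDM lungs and 27.2 to 38.9 CPM (median 32.99) in saline lungs. No 4-week lung was as low as the highest saline lung, and the log2 difference was 1.77 ± 0.17 (edgeR adjusted p = 6.24e-11). Sdf2l1, an ER partner of BiP and its co-chaperones, had 26.6 to 77.7 CPM (median 53.4) in 4-week HDM lungs and 11.4 to 20.7 CPM (median 13.3) in saline lungs. Its groups were also apart, by 1.80 ± 0.21 (edgeR adjusted p = 5.68e-09). Ssr4, a subunit of the translocon-associated protein complex, had 48.1 to 115 CPM (median 72.02) in 4-week HDM lungs and 24.9 to 35.98 CPM (median 32.3) in saline lungs. This difference was 1.35 ± 0.16 (edgeR adjusted p = 1.61e-08), again with no overlap.

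Among the chaperones, Creld2, an ER-stress-inducible secreted factor with disulfide isomerase activity, had 44.03 to 157 CPM (median 92.7) in 4-week HDM lungs and 26.4 to 40.7 CPM (median 28.8) in saline lungs. The difference was 1.55 ± 0.21 (edgeR adjusted p = 1.9e-07). Hspa5 itself moved less, by 0.55 ± 0.13 (edgeR adjusted p = 0.000567), with 539.9 to 988 CPM (median 696) in 4-week HDM lungs and 405 to 628 CPM (median 512) in saline lungs, and these groups overlapped. Dnajb9, the J-protein that restrains IRE1, did not pass at 0.02 ± 0.11, and neither did the lectin chaperone Canx (-0.07 ± 0.08) or the BiP co-chaperone Dnajc3 (-0.09 ± 0.08), both of which hold the ERSE element. Pdia4, a disulfide isomerase, rose by 1.14 ± 0.14 (edgeR adjusted p = 1.66e-08), with 169 to 462 CPM (median 282) in 4-week HDM lungs and 116 to 158 CPM (median 134) in saline lungs and no overlap.

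In the unfolded protein response branch, Atf4, the factor translated when PERK is active, rose by 0.63 ± 0.13 (edgeR adjusted p = 0.000102), with 106 to 244 CPM (median 142) in 4-week HDM lungs and 89.5 to 123 CPM (median 101) in saline lungs. Ddit3, which encodes the ATF4 target CHOP, rose by 0.42 ± 0.14 (edgeR adjusted p = 0.0119), with 13.6 to 39.8 CPM (median 18.3) in 4-week HDM lungs and 12.4 to 16.7 CPM (median 13.99) in saline lungs. The highest 4-week lung for both is the library that stands apart, and after a correction of the counts for GC content and gene length, chosen after seeing the data, the Ddit3 difference was -0.0095 ± 0.09 and no longer passed. Atf6 fell, by -0.38 ± 0.11 (edgeR adjusted p = 0.00464), with 41.6 to 111 CPM (median 87.7) in 4-week HDM lungs and 99.3 to 127 CPM (median 119) in saline lungs; with the same correction the difference was -0.09 ± 0.06 and did not pass. The transcripts of the other sensors did not pass, at -0.24 ± 0.20 for Ern1 and -0.03 ± 0.10 for Eif2ak3. Within the 2 ranges of sample numbers, 17 members and 14.9% of tested genes were called in the first (4 against 2 libraries), and 32 members and 57.7% of tested genes in the second (6 against 5 libraries).

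After 15 weeks of HDM without antibody, 33 of the 39 members were higher than in saline lungs and none was lower, where 31.2% of all tested genes were called higher and 28.1% lower. The median log2 difference of the members was 0.87, against 0.01 for all tested genes. Every degradation gene, disulfide isomerase and signal peptidase gene was among the 33, with the COPII gene Sec24d, 9 of 11 chaperones, 6 of 7 translocon genes and 2 of 5 unfolded protein response genes. For 28 members the 15-week lungs all lay above the saline lungs, where 14.7% of tested genes did so. The 6 members not called were Canx (0.19 ± 0.09), Dnajc3 (0.12 ± 0.09), Ssr1 (0.08 ± 0.06), Atf6 (-0.02 ± 0.13), Ern1 (0.37 ± 0.22) and Eif2ak3 (0.21 ± 0.11). Without the 2 libraries that stand apart, 37 of 39 were higher, where 32.1% of tested genes were, and with the correction for GC content and length Atf6 was called higher, at 0.25 ± 0.07.

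Sdf2l1 had the greatest difference of the members, 2.38 ± 0.23 (edgeR adjusted p = 1.27e-10), with 60.3 to 107 CPM (median 70.95) in 15-week HDM lungs, about 5.20 times the saline level. Creld2 followed at 2.21 ± 0.24 (edgeR adjusted p = 8.92e-10), with 98.1 to 224 CPM (median 151) in 15-week HDM lungs. Sec11c, with 115 to 173 CPM (median 134) in those lungs, differed by 2.06 ± 0.18 (edgeR adjusted p = 1.77e-11). In each of the 3 genes, no 15-week lung overlapped the saline range given above.

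Edem1, a mannosidase-like lectin that sends misfolded glycoproteins to degradation, had 314 to 536 CPM (median 348) in 15-week HDM lungs and 85.9 to 122 CPM (median 90.1) in saline lungs. Its difference was 2.03 ± 0.19 (edgeR adjusted p = 1.25e-10), close in size to that of its relative Edem2 (2.01 ± 0.21). Sel1l, the adaptor of the Hrd1 ligase, rose by 0.99 ± 0.12, and Syvn1, the ligase itself, by 1.33 ± 0.17. Derl2, a Derlin of the same complex, rose by 0.44 ± 0.09, the smallest change among the degradation genes, with 66.3 to 76.6 CPM (median 68.8) in 15-week HDM lungs and 48.6 to 54.5 CPM (median 50.9) in saline lungs.

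Hspa5 had 677 to 1202 CPM (median 1110.4) in 15-week HDM lungs, a difference of 1.07 ± 0.15 from saline lungs (edgeR adjusted p = 9.99e-08). The lowest of these is the library that stands apart, and the next lowest had 1015 CPM. Hsp90b1 rose by 1.02 ± 0.16 and Calr by 1.10 ± 0.16. P4hb rose by 0.92 ± 0.12 (edgeR adjusted p = 2.13e-08), with 629 to 1097 CPM (median 722) in 15-week HDM lungs and 372 to 451 CPM (median 407) in saline lungs. Of the 8 members with an ERSE element, 6 were called higher and Canx and Dnajc3 were not. In the same comparison 33 of all 39 members and 31.2% of tested genes were called higher. Whether the element goes with the rise was not tested.

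**Figure D2:**
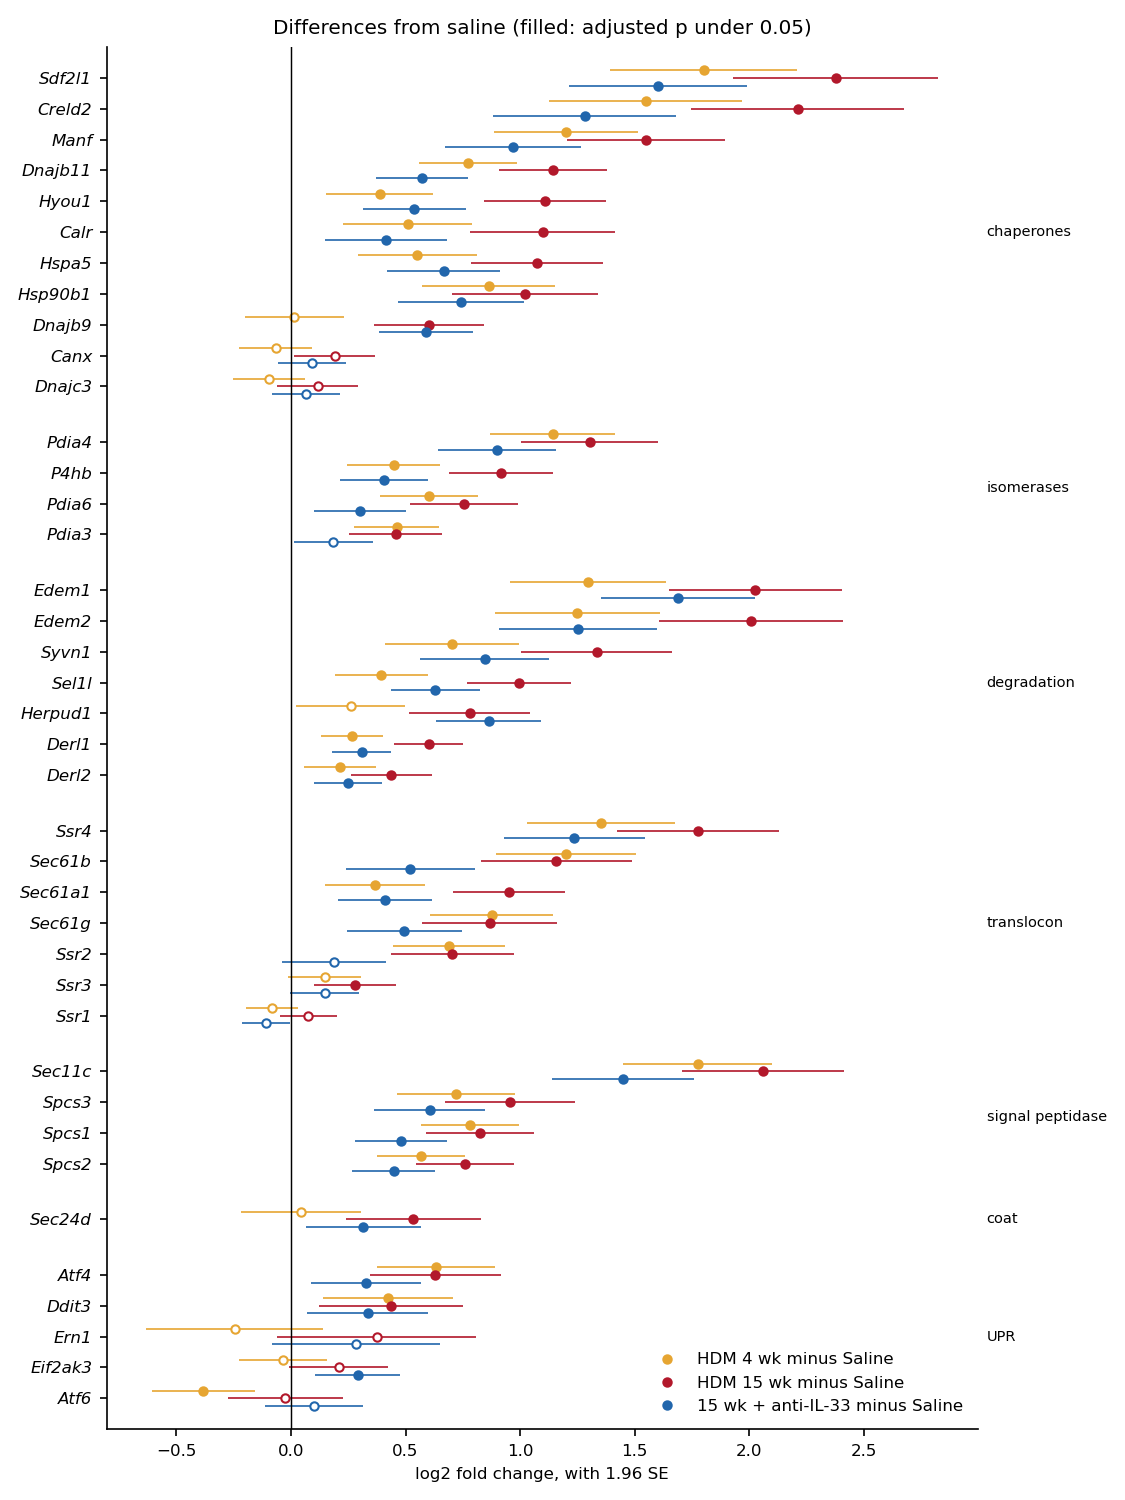
Log2 difference from saline lungs (x axis) for each of the 39 members (rows, grouped by role) in 4-week HDM, 15-week HDM and 15-week HDM with anti-IL-33 lungs; whiskers are 1.96 SE and filled points passed the adjusted threshold of 0.05. Sdf2l1, Sec11c, Creld2, Edem1 and Edem2 lie farthest to the right, and Canx, Dnajc3, Ssr1, Atf6, Ern1 and Eif2ak3 are open at 15 weeks.

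Set directly against 4-week HDM lungs, 15-week HDM lungs had 21 of 39 members higher and none lower, where 12.3% of tested genes were called higher and 9.08% lower. The median log2 difference of the members was 0.33, against -0.01 for all tested genes. By role, the 21 comprised all 7 degradation genes and 8 of 11 chaperones, but 2 of 7 translocon genes, 1 of 4 disulfide isomerases and 0 of 4 signal peptidase genes, with Sec24d, Atf6 and Ern1. For the signal peptidase the differences between 15 and 4 weeks were 0.28 ± 0.16 for Sec11c, 0.04 ± 0.11 for Spcs1, 0.19 ± 0.10 for Spcs2 and 0.24 ± 0.13 for Spcs3. Whether the roles differ from each other was not tested. All 39 members overlapped between the 2 groups, where 1.53% of tested genes lay wholly above and 0.474% wholly below.

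Hyou1, an Hsp110-type chaperone that exchanges nucleotide on BiP, had 230 to 408 CPM (median 258) in 15-week HDM lungs and 137 to 239 CPM (median 164) in 4-week HDM lungs, a difference of 0.72 ± 0.12 (edgeR adjusted p = 7.59e-05). Sel1l differed by 0.60 ± 0.10 (edgeR adjusted p = 0.000116), with 354 to 524 CPM (median 376) in 15-week HDM lungs and 193 to 363 CPM (median 256) in 4-week HDM lungs. Dnajb9, not called at 4 weeks, had 58.02 to 109 CPM (median 99.03) in 15-week HDM lungs and 40.9 to 80.5 CPM (median 54.6) in 4-week HDM lungs, a difference of 0.59 ± 0.11 (edgeR adjusted p = 0.000286). In all 3 genes each 15-week lung lay above the mean of the 4-week lungs, and the ranges overlapped. Herpud1, which helps recruit the Hrd1 complex, and Sec24d, which selects cargo for COPII vesicles, differed between the times by 0.52 ± 0.12 and 0.49 ± 0.14, both called. Against the shared saline lungs Herpud1 was 0.78 ± 0.14 higher at 15 weeks and did not pass at 4 weeks (0.26 ± 0.12), and Sec24d was 0.53 ± 0.15 higher at 15 weeks and did not pass at 4 weeks (0.04 ± 0.13).

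Sec61b, a subunit of the translocation channel, showed no such step: it differed from saline by 1.16 ± 0.17 at 15 weeks and by 1.20 ± 0.16 at 4 weeks, and between the times by -0.04 ± 0.15 (edgeR adjusted p = 0.875). Atf4 likewise differed between the times by -0.0024 ± 0.13 (edgeR adjusted p = 0.993) and Ddit3 by 0.01 ± 0.14. Atf6 and Ern1, neither of them called against saline at 15 weeks, were 0.36 ± 0.12 and 0.62 ± 0.20 higher at 15 weeks than at 4 weeks. The 4-week library that stands apart was far below its group in both. It had 41.6 CPM of Atf6 and 3.11 CPM of Ern1, where the next lowest 4-week lungs had 77.7 and 25.9 CPM. The same library was lowest in Sec24d, at 18.1 CPM against a next value of 47.5 CPM. Ern1 had 31.9 to 56.1 CPM (median 43.6) in 15-week HDM lungs, 3.11 to 46.2 CPM (median 29.6) in 4-week HDM lungs and 26.4 to 44.4 CPM (median 38.7) in saline lungs. Eif2ak3, with 46.3 to 56.6 CPM (median 49.99) in 15-week HDM lungs and 19.8 to 50.1 CPM (median 45.8) in 4-week HDM lungs, did not pass (0.24 ± 0.10). The comparison rests on few libraries within each range of sample numbers, where 7 members and 9.09% of tested genes were called in the first (5 against 4 libraries) and 1 member and 0.926% of genes in the second (2 against 6 libraries); when only these 2 groups were fitted, 9 members and 8.16% of genes were called.

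Markers of other secreting and infiltrating cells moved with these groups. Of 10 plasma cell markers, 8 rose and 1 fell at 15 weeks and 7 rose at 4 weeks, and they summed to 3888 to 8122 CPM in 15-week HDM lungs and 1401 to 5729.7 CPM in 4-week HDM lungs, against 359 to 913 CPM in saline lungs. Jchain, which joins the units of polymeric IgA and IgM, held most of that sum in lungs given HDM and rose by 5.03 ± 0.58 at 15 weeks and 4.10 ± 0.53 at 4 weeks, and Mzb1, a chaperone of antibody-secreting cells, by 4.52 ± 0.40 and 3.79 ± 0.37. Of 10 goblet cell markers, 6 rose at 15 weeks and 9 at 4 weeks, summing to 978 to 2171 CPM in 15-week HDM lungs, 1734 to 3565 CPM in 4-week HDM lungs and 87.7 to 1279 CPM in saline lungs; Agr2, a goblet cell disulfide isomerase, rose by 1.64 ± 0.44 and 2.72 ± 0.41 against saline and was -1.07 ± 0.37 between 15 and 4 weeks. Type II alveolar markers rose in 8 of 8 at 15 weeks and 6 of 8 at 4 weeks, summing to 25692 to 56165 CPM in 15-week HDM lungs, 22641 to 47196 CPM in 4-week HDM lungs and 14970.5 to 21617 CPM in saline lungs. Macrophage markers rose in 8 of 8 and 7 of 8, summing to 7823 to 18383 CPM, 7289 to 15731 CPM and 473 to 2412 CPM in the same order of groups. Between 15 and 4 weeks, 4 of 8 type II markers were higher (median 0.48), 2 of 10 plasma cell markers were higher and 1 lower (median 0.53), 2 of 8 macrophage markers were higher (median 0.38), and 2 of 10 goblet cell markers (median -0.83) and 3 of 4 cardiac markers (median -1.09) were lower. No marker of the plasma cell, goblet, type II and macrophage lists was at 0 in every library. The part of the goblet, type II, macrophage and cardiac markers in the differences above was not tested.

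With anti-IL-33 antibody during 15 weeks of HDM, 9 of the 39 members were lower than in isotype lungs and none was higher, where 3.14% of all tested genes were called lower and 3.58% higher. The 9 were the signal peptidase genes Sec11c, Spcs1 and Spcs2, the disulfide isomerases Pdia3 and Pdia6, the chaperones Dnajb11 and Creld2, the channel subunit Sec61b, and Atf4. The median log2 difference of the members was -0.28, against 0.01 for all tested genes. None of the 7 degradation genes was called. Dnajb11 and Ssr2 were the members whose anti-IL-33 lungs all lay below the isotype lungs, where 0.904% of tested genes did so.

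Sec11c had 65.8 to 124 CPM (median 86.1) in anti-IL-33 lungs, against 201, 141, 143 and 119.9 CPM in the 4 isotype lungs. All 15 anti-IL-33 lungs were below the isotype mean, though the highest of them passed the lowest isotype lung, and the difference was -0.68 ± 0.17 (edgeR adjusted p = 0.0202). Pdia6 had 184 to 312 CPM (median 216) in anti-IL-33 lungs, against 379.6, 311, 347 and 296 CPM in isotype lungs, a difference of -0.52 ± 0.12 (edgeR adjusted p = 0.0101). For Spcs2, a noncatalytic signal peptidase subunit, anti-IL-33 lungs had 106 to 163 CPM (median 132) and isotype lungs had 201, 162, 179 and 161 CPM, a difference of -0.39 ± 0.11 (edgeR adjusted p = 0.0299).

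Creld2 had 51.1 to 128 CPM (median 71.7) in anti-IL-33 lungs, against 182, 117, 119 and 110.4 CPM in isotype lungs, the greatest fall of the 9 at -0.77 ± 0.22 (edgeR adjusted p = 0.0352). One isotype lung stood well above the other 3. Atf4 had 95.3 to 154 CPM (median 123) in anti-IL-33 lungs, against 202, 148, 193 and 136 CPM in isotype lungs, a difference of -0.46 ± 0.15 (edgeR adjusted p = 0.0486). Its isotype values fell into 2 high and 2 low lungs, and in the second range of sample numbers, with 1 isotype library, its difference was 0.03.

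Some members outside the 9 differed by as much as some of the 9 without passing: Sec61g, a channel subunit, by -0.45 ± 0.15 and Ssr2, of the translocon-associated complex, by -0.41 ± 0.14, against -0.35 ± 0.10 for Pdia3, which passed. Hspa5 differed by -0.33 ± 0.15 (edgeR adjusted p = 0.136), with 567.9 to 1082 CPM (median 789.5) in anti-IL-33 lungs and 994, 913, 1142 and 949 CPM in isotype lungs. Sdf2l1, the member with the greatest HDM difference, had 26.7 to 64.7 CPM (median 41.95) in anti-IL-33 lungs and 85.5, 52.3, 69.5 and 58.7 CPM in isotype lungs, and did not pass at -0.52 ± 0.21 (edgeR adjusted p = 0.108). Edem1 differed by -0.11 ± 0.19, with 216 to 454 CPM (median 282) in anti-IL-33 lungs and 383, 335, 285 and 322 CPM in isotype lungs. Against isotype lungs the stress sensors pointed the other way without passing, at 0.26 ± 0.13 for Atf6, 0.37 ± 0.23 for Ern1 and 0.18 ± 0.11 for Eif2ak3. For each, all 15 anti-IL-33 lungs lay above the isotype mean. For Ern1 this did not hold against lungs without antibody. It was 0.37 ± 0.22 over saline in those lungs, and no unfolded protein response gene passed 0.334 over saline in anti-IL-33 lungs. Atf6 and Eif2ak3, at -0.02 ± 0.13 and 0.21 ± 0.11 over saline without antibody, were higher with anti-IL-33. Dnajb9 differed by 0.02 ± 0.12 and Herpud1 by 0.26 ± 0.14.

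The isotype group holds 4 lungs, and 2 of them decide the count. Leaving out isotype replicate 1 or isotype replicate 3 left 0 members called, where 0.595% and 0.367% of tested genes were called, while leaving out replicate 2 or 4 left 8 and 7, where 5.92% and 4.32% were. Replicate 1 also had the highest Jchain of its group, with 7378, 3476, 4620.4 and 2379 CPM in isotype replicates 1 to 4. Without the 2 libraries that stand apart, 15 members were called lower and 2 higher, where 15% of tested genes were called lower and 14.8% higher. Within the ranges of sample numbers, 4 members and 1.92% of tested genes were called in the first (8 against 3 libraries) and 0 members and 0.00622% of genes in the second (7 against 1).

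Isotype lungs were set against the 15-week HDM lungs that had no antibody, to see whether these controls differ. By edgeR 0 members and 0 genes were called, while 2 members and 933 genes (5.98%) had an unadjusted p below 0.05, and DESeq2 and limma-voom also called 0 members. The difference for Sec11c was 0.07 ± 0.20, with an interval of 1.96 SE from -0.32 to 0.45. For Hyou1, P4hb and Edem2 it was -0.29 ± 0.15, -0.28 ± 0.13 and -0.44 ± 0.23.

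With the 7 lungs without antibody as the control, 27 of the 39 members were lower in anti-IL-33 lungs and none was higher, where 19.9% of tested genes were called lower. Creld2 had 51.1 to 128 CPM (median 71.7) in anti-IL-33 lungs, against 98.1 to 224 CPM (median 151) in 15-week HDM lungs, a difference of -0.93 ± 0.18 (edgeR adjusted p = 0.000371). Sdf2l1 differed by -0.78 ± 0.17, Edem2 by -0.75 ± 0.16, Calr by -0.68 ± 0.13 and Hspa5 by -0.41 ± 0.12, all called. The 2 comparisons share the anti-IL-33 lungs, and Sec11c, Pdia6 and Atf4 differed by -0.61 ± 0.14, -0.45 ± 0.10 and -0.30 ± 0.12 from the lungs without antibody. Without the 15-week library that stands apart, 28 were called, where 22.2% of tested genes were called in either direction.

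**Figure D3:**
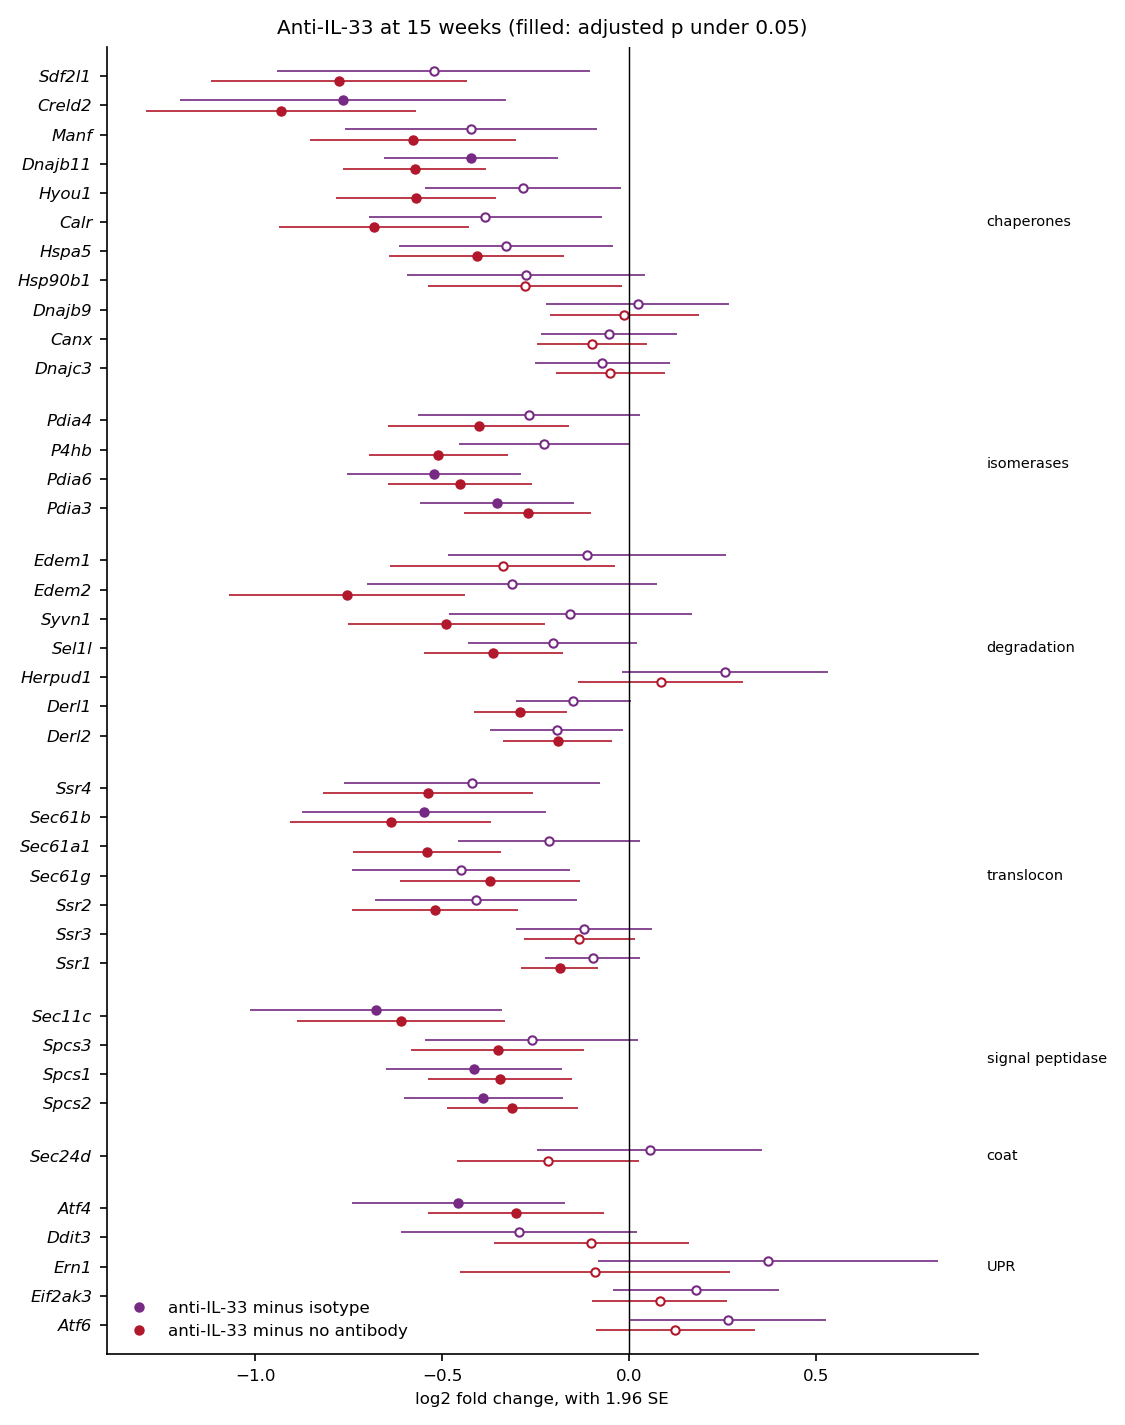
Log2 difference of anti-IL-33 lungs (x axis) from isotype lungs and from 15-week HDM lungs without antibody for the 39 members (rows, grouped by role); whiskers are 1.96 SE and filled points passed the adjusted threshold of 0.05. Both sets lie mostly left of 0; 9 members passed against the isotype lungs and 27 against the lungs without antibody.

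Anti-IL-33 lungs still had 31 of the 39 members higher than saline lungs and none lower, where 20% of tested genes were called higher and 18.5% lower. The median difference of the members was 0.48. Edem1 differed by 1.69 ± 0.17 (edgeR adjusted p = 7.93e-10), Sdf2l1 by 1.60 ± 0.20 (edgeR adjusted p = 3.8e-08) and Sec11c by 1.45 ± 0.16 (edgeR adjusted p = 3.33e-09), and in each the 15 anti-IL-33 lungs all lay above the saline lungs, as they did for 16 members and for 5.08% of tested genes. All 7 degradation genes and all 4 signal peptidase genes were called. Pdia3, one of the 9, was not (0.18 ± 0.09), nor were Canx, Dnajc3, Ssr1, Ssr2, Ssr3, Atf6 and Ern1. Eif2ak3 was called here, at 0.29 ± 0.09 (edgeR adjusted p = 0.0123).

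Markers of other cells also differed between anti-IL-33 and isotype lungs, few of them past the threshold. All 10 plasma cell markers were below 0 on the log2 scale, with a median of -0.39, and 7 of 8 type II markers were, with a median of -0.26, beside -0.28 for the 39 members; the medians were -0.21 for macrophage and 0.09 for goblet markers. Of the 10 plasma cell markers 1 was called lower than in isotype lungs, Pou2af1 (-0.88 ± 0.27), a B-lineage coactivator, and the list summed to 2214 to 7768 CPM in anti-IL-33 lungs and 3176 to 8423 CPM in isotype lungs. Jchain differed by -0.49 ± 0.49, Mzb1 by -0.42 ± 0.34 and Derl3, a Derlin abundant in plasma cells, by -0.49 ± 0.31, none of them called. One goblet marker, the anion exchanger Slc26a4 (-1.84 ± 0.37), and 1 type II marker, the surfactant protein gene Sftpd (-0.66 ± 0.21), were lower, and the lists summed to 370.3 to 1504 and 18928 to 30306 CPM in anti-IL-33 lungs against 964 to 1527 and 29197 to 41909.9 CPM in isotype lungs. None of the 8 macrophage markers was called, at sums of 1814 to 23864 and 9665 to 22610.3 CPM. The part of the goblet, type II and macrophage markers in the antibody difference was not tested.

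Jchain served as a measure of plasma cell transcript in each lung. It had 1618 to 6950.1 CPM (median 3019) in anti-IL-33 lungs, 2379 to 7378 CPM (median 4048) in isotype lungs, 24.8 to 562 CPM (median 60.1) in saline lungs, 973 to 4834 CPM (median 1964) in 4-week HDM lungs and 2308 to 7064 CPM (median 4125) in 15-week HDM lungs. Every lung given HDM was above every saline lung. Within groups, a slope of each gene on log2 CPM of Jchain was fitted with group and number range as further terms. A slope is thus the log2 change of the gene per log2 unit of Jchain among lungs of the same group. It is 1 slope shared by all groups, and saline lungs spanned the widest Jchain range on the log scale. The median slope of the members was 0.06 in this shared fit. It was 0.22 in 4-week HDM lungs alone, 0.12 in 15-week HDM lungs alone, 0.03 in saline lungs alone and 0.02 in anti-IL-33 lungs alone. The medians of all tested genes in these fits lay between -0.013 and 0.015.

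Edem1 was the member called, with a slope of 0.24 ± 0.05 (edgeR adjusted p = 0.0296), where 24 of 15597 genes (0.154%) were called. The slope of Edem1 passed in 4-week HDM lungs alone (0.65) and without saline replicate 5, the saline lung highest in Jchain and Edem1 (0.29, chosen after seeing the data). It did not pass in anti-IL-33 lungs alone (0.41), 15-week HDM lungs alone (0.20), saline lungs alone (0.07), either range of sample numbers alone (0.45 and 0.18) or after the correction for GC content and length (0.22). At an unadjusted p below 0.05, 12 members had a positive slope and 0 a negative one, where 2.19% of all genes had a positive slope at that level; the 12 were Hspa5, Hsp90b1, Dnajb9, Dnajc3, Creld2, Manf, Pdia4, Sel1l, Edem1, Ssr4, Spcs3 and Sec11c. The slope was above 0 for 33 of the 39 members and for 45.1% of all genes. It was 0.22 ± 0.07 for Creld2, 0.16 ± 0.04 for Pdia4, 0.16 ± 0.05 for Hsp90b1, 0.16 ± 0.05 for Sec11c, 0.15 ± 0.05 for Ssr4 and 0.11 ± 0.04 for Hspa5, with edgeR adjusted p from 0.171 to 0.961. P4hb (-0.04 ± 0.04), Derl2 (-0.02 ± 0.03), Sec61b (0.0031 ± 0.05), Atf4 (0.0039 ± 0.05) and Ddit3 (-0.03 ± 0.05) had slopes no more than about 1 SE from 0. For scale, the plasma cell genes Mzb1 and Derl3 had slopes of 0.57 ± 0.07 and 0.52 ± 0.08, and Agr2 one of 0.07 ± 0.14.

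**Figure D4:**
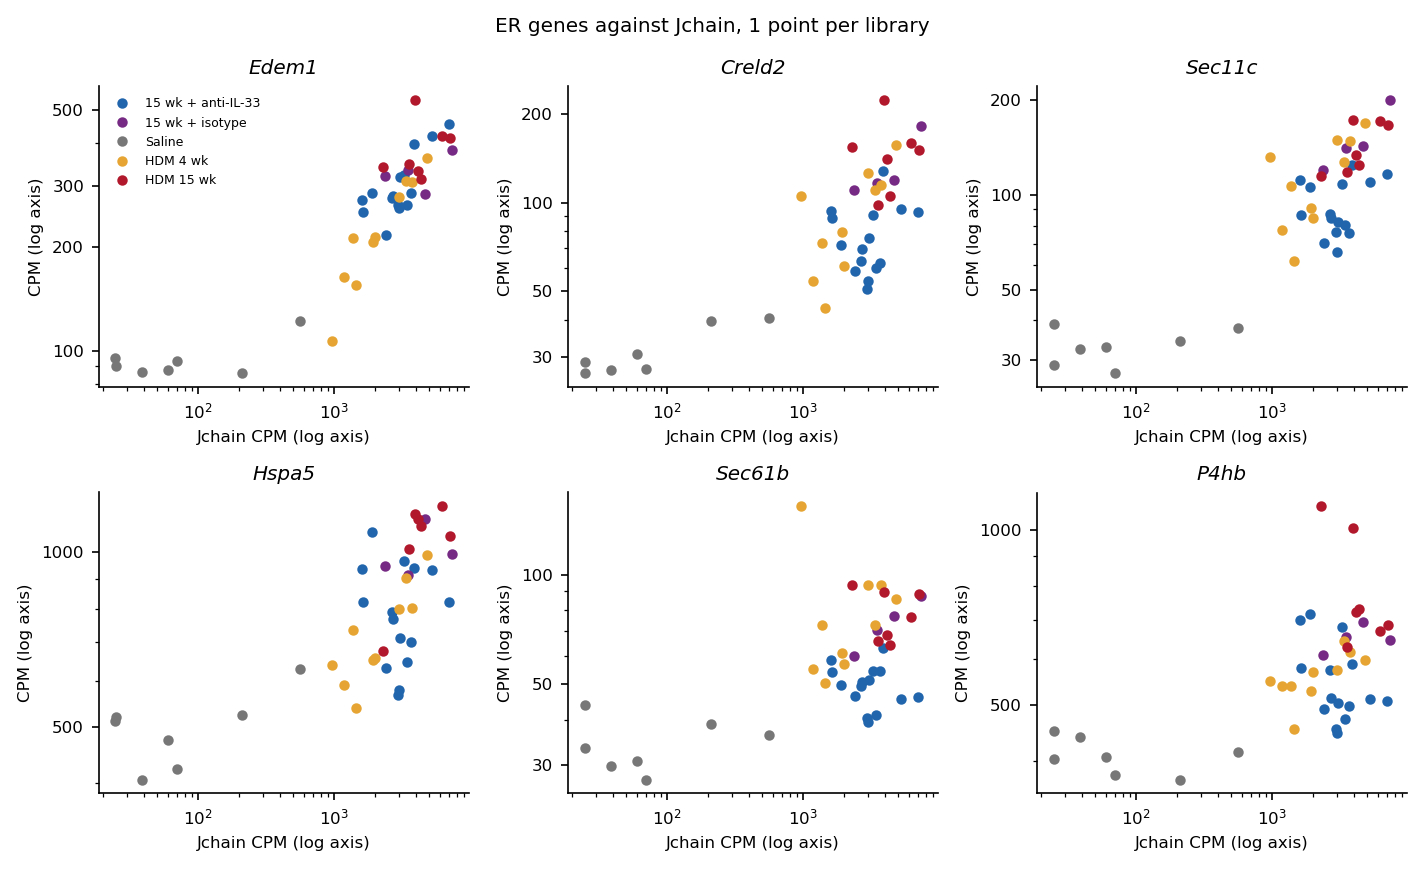
CPM of 6 members (y axis, log) against CPM of Jchain (x axis, log), 1 point a library, coloured by group. The slopes within groups, fitted over all 43 libraries, were 0.24 for Edem1, 0.22 for Creld2, 0.16 for Sec11c, 0.11 for Hspa5, 0.0031 for Sec61b and -0.04 for P4hb, of which that of Edem1 passed; saline lungs lie at the left.

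Read against Mzb1, another plasma cell transcript, 14 members had a called positive slope, where 1.21% of genes did so. The greatest were 0.55 ± 0.06 for Creld2, 0.44 ± 0.05 for Edem1 and 0.41 ± 0.05 for Ssr4, and Pdia4 had 0.36 ± 0.04. None of the 5 unfolded protein response genes, and 1 of the 7 translocon genes, was among the 14.

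With Jchain as a further term in the group comparisons, 17 of the 21 members were still called higher at 15 than at 4 weeks of HDM, where 12.4% of tested genes were, and 7 of the 9 were still called lower in anti-IL-33 than in isotype lungs, where 2.85% were; the 7 were Sec11c, Spcs1, Spcs2, Pdia3, Pdia6, Dnajb11 and Sec61b, and Creld2 and Atf4 were no longer called. Against saline lungs with the same term, 11 members were called higher at 15 weeks. At 4 weeks 6 were higher and 2 lower, and 7 of these 8 were also called without the term. In anti-IL-33 lungs 0 were called. Of all tested genes, 15.2% were higher at 15 weeks, 12% higher and 6.26% lower at 4 weeks, and 4% called either way with anti-IL-33. The medians of the members were then 0.56, 0.30 and 0.24. Since no saline lung reached the Jchain level of any lung given HDM, Jchain and HDM exposure cannot be told apart in those 3 comparisons. In the comparisons among lungs given HDM, the term is the slope shared by all groups. Its median over the members was 0.06, against 0.22 in 4-week HDM lungs alone, 0.12 in 15-week HDM lungs alone and 0.02 in anti-IL-33 lungs alone. The part of plasma cells in the differences that stayed called was not tested. With the term Sdf2l1 differed from saline by 1.76 ± 0.46 and Hspa5 by 0.42 ± 0.30 at 15 weeks, and the second did not pass.

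Another 112 genes of the same pathway, from a list of folding, degradation, translocation, transport and stress response genes, gave 44 higher and 7 lower against saline in anti-IL-33 lungs, 54 higher and 14 lower in 4-week HDM lungs and 70 higher and 6 lower in 15-week HDM lungs. Between 15 and 4 weeks 40 were higher and 3 lower, and between anti-IL-33 and isotype lungs 1 was higher and 12 were lower. Of all tested genes, 20% were higher and 18.5% lower than saline in anti-IL-33 lungs. At 4 weeks of HDM 29.3% were higher and 27.5% lower than saline, and at 15 weeks 31.2% and 28.1%. Between 15 and 4 weeks 12.3% were higher and 9.08% lower, and between anti-IL-33 and isotype lungs 3.58% and 3.14%. Xbp1, the factor that IRE1 activates by splicing and which drives secretory capacity in plasma cells, had 285 to 518 CPM (median 344) in anti-IL-33 lungs, 448 to 664 CPM (median 518) in isotype lungs, 154 to 211 CPM (median 169) in saline lungs, 234 to 479 CPM (median 290.2) in 4-week HDM lungs and 417 to 809 CPM (median 558) in 15-week HDM lungs. It rose by 0.95 ± 0.15 at 4 weeks and 1.71 ± 0.17 at 15 weeks against saline, was 0.76 ± 0.15 higher at 15 than at 4 weeks, and was lower with anti-IL-33 than with isotype antibody, by -0.53 ± 0.17 (edgeR adjusted p = 0.0461). These counts are per gene and do not separate its spliced form.

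Derl3 rose by 4.49 ± 0.38 at 15 weeks and 3.38 ± 0.35 at 4 weeks. Among the folding genes, Txndc5, a thioredoxin-domain isomerase, rose by 1.78 ± 0.19 at 15 weeks, and Erp29, an ER chaperone, by 1.28 ± 0.17 at 4 weeks. In the transport list the cargo receptor Surf4 rose by 1.08 ± 0.13 at 15 weeks, and Kdelr2, which retrieves ER residents from the Golgi, was 0.37 ± 0.07 higher at 15 than at 4 weeks. Srprb, a subunit of the signal recognition particle receptor, rose by 0.95 ± 0.12 at 15 weeks. With the antibody, Fkbp2 (-0.65 ± 0.18), Txndc5 (-0.66 ± 0.18), Mcfd2 (-0.46 ± 0.11), Srp14 (-0.41 ± 0.11) and Atf3 (-1.27 ± 0.27) were lower than in isotype lungs, and Crebrf, a negative regulator of the CREB3 branch, was higher (0.63 ± 0.17). Derl3 was the one gene of the 112 with a called slope on Jchain.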

How the data were processed

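Strand-specific mRNA libraries of lung from 43 mice were analysed. The table deposited by the authors holds raw counts per Entrez gene ID and library; the genome build is GRCm38 per the submitters' processing notes. Aligner and counter: not given in the sources used here. Of 24475 IDs, 24375 matched a RefSeq gene, and the 100 others, with 2.62% of the counts, stayed in the fits without a name. Groups come from the titles, and the labels give no replicate numbers, so replicates are numbered in accession order. No 2 libraries agreed within sampling noise. Counts were tested with edgeR 4.0.16 (R 4.3.3; TMM, default filter on low counts, 15598 genes, robust quasi-likelihood fit with group and sample-number range as terms, contrasts with Benjamini-Hochberg adjustment over all tested genes, threshold 0.05); SE is the log2 difference divided by the square root of its F value. For the slope, log2 CPM of Jchain (prior count 2) was a further term and Jchain was left out of the tested genes. The fits were also run on simulated counts that held no outlying library and no effect of the number range. Those runs do not bear on results that turn on single lungs. Alternatives used DESeq2 1.42.0, limma-voom (limma 3.58.1), other scalings, filters, terms and subsets of libraries.

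The p-values set each difference against the spread between libraries, which was estimated over all 43 together and not for each group. Totals of 4.80 to 12.6 M counts limit the precision of weakly expressed members such as Ern1. The 39 members, the role, marker and pathway lists, and the library pair left out as standing apart were chosen with earlier results of these data known. Genes are named by a rule: the 3 members with the smallest p called higher and lower in each comparison, the 4 with the smallest p for a positive and 2 for a negative slope on Jchain, 11 stated members whatever their result (Hspa5, Sdf2l1, Pdia4, Creld2, Sec11c, Sec24d, Atf4, Atf6, Ddit3, Ern1 and Eif2ak3), up to 2 leading genes of each other list, and Jchain, Mzb1, Xbp1, Derl3 and Agr2. Other members are named to account for the list. Coordinates and promoters are from RefSeq (GRCm38.p6), where 8 members have no promoter entry. Exon lengths, and the GC content and lengths used in the correction, are from the GENCODE annotation of the same build. Reads of overlapping genes could be shared between them, and how the counting used strand is unknown here.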

Additional observations from a re-analysis of the deposited data

Results flagged for a closer look

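For each of the 21 named members and each group of 4 to 10 libraries, the highest and the lowest library was compared with the rest; 15 of 84 groups held a library far from the others, where chance gives about 1 in 20. In 4-week HDM lungs, replicate 3 was far from the other 9 libraries in 6 genes: it was lowest in Atf6 (41.6 CPM), Sec24d (18.1 CPM), Ern1 (3.11 CPM) and Eif2ak3 (19.8 CPM) and highest in Derl2 (83.6 CPM) and Ddit3 (39.8 CPM). In 15-week HDM lungs, replicate 1 was lowest in Hspa5 (677 CPM), Atf6 (64.3 CPM) and Spcs2 (133 CPM). These are the 2 libraries that stand apart.

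Among saline lungs, replicate 5 was highest in Edem1 (122 CPM), Hyou1 (163 CPM) and Sel1l (245 CPM), and it also had the highest Jchain of its group, at 562 CPM. Saline replicate 3 was highest in Atf4 (123 CPM). Among the 4 isotype lungs, replicate 1 was highest in Creld2 (182 CPM) and Ssr4 (114 CPM), and had the highest Jchain of its group, at 7378 CPM.

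The difference from saline lungs itself differed between 15 and 4 weeks of HDM for 21 members, which is the tested contrast of 15 against 4 weeks, since the saline lungs are shared.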

How the results depend on the processing

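No paired analysis was possible because the labels give no replicate numbers that the groups share. Of the counts of called members under the alternatives, 85 stayed within 1.5 times the reported count, 18 fell below and 8 rose above. Of the values of single named members, 1123 kept their call or lack of one, 98 lost the call and 22 gained it. Another 4 reversed, which means that the sign changed and either fit made a call. A change of sign between values called in neither fit is counted among the 1123. Other scalings (RLE, upper quartile), filters, limma-voom, DESeq2 and leaving out the number-range term kept every count within 1.5 times. With libraries of the first number range alone 4-week HDM against saline had 17 calls, anti-IL-33 against saline 9, 15 against 4 weeks 7, anti-IL-33 against isotype 4 and the Jchain slope 0; with the second range alone, 15 against 4 weeks had 1 call, and anti-IL-33 against isotype and the slope had 0, all with fewer libraries. In the first range, 3.74% of tested genes were called for anti-IL-33 against saline. Fitting only the groups compared gave 16 for anti-IL-33 against isotype, 15 lower and 1 higher, where 27.4% of tested genes were called. It gave 9 for 15 against 4 weeks, where 8.16% were. Without the 2 libraries that stand apart the count for anti-IL-33 against isotype was 17, where 29.8% of tested genes were called. With lungs without antibody as the control that count was 27, where 35.8% were called. It was 28 without their replicate 1, chosen after seeing the data, where 22.2% were called. With both controls averaged it was 27, where 37.2% were called. Leaving out each isotype library gave 0 to 8 for anti-IL-33 against isotype and 0 to 0 for isotype against no antibody. A Jchain term gave 8, 11 and 0 against saline at 4 weeks, at 15 weeks and with anti-IL-33. The slope gave 14 with Mzb1, 2 without the 2 libraries farthest in Jchain, 2 in 4-week HDM lungs alone, and 0 in anti-IL-33, 15-week HDM or saline lungs alone or after the correction for GC content and length, which was chosen after seeing the data, as was leaving out saline replicate 5. Reversed values were Atf4 for anti-IL-33 against isotype in the second number range (0.031), Ddit3 at 4 weeks (-0.0095) and Atf6 at 15 weeks (0.25) against saline after that correction, and Sec24d for anti-IL-33 against saline with a Jchain term (-0.032); the cause was not tested.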

Other observations

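Lists of other cells were read in the same fit. B cell markers, which mark cells before antibody secretion, were higher than in saline lungs in 2 of 6 in anti-IL-33 lungs, 5 of 6 in 4-week HDM lungs and 2 of 6 in 15-week HDM lungs, and 3 of 6 were lower at 15 than at 4 weeks; their sums were 189 to 590.2 CPM in anti-IL-33 lungs, 257 to 317 CPM in isotype lungs, 159 to 259 CPM in saline lungs, 270.4 to 786 CPM in 4-week HDM lungs and 225 to 418 CPM in 15-week HDM lungs. Between anti-IL-33 and isotype lungs 1 of 6 was lower. None of the 6 had a called slope on Jchain, against 4 of the 9 plasma cell markers tested, Jchain itself being left out.

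Of 6 fibroblast markers, 3 were higher and 2 lower than in saline lungs at 15 weeks, 3 higher and 1 lower at 4 weeks, 1 higher and 1 lower with anti-IL-33, and 1 was lower in anti-IL-33 than in isotype lungs. Of 6 lung identity markers, 2 were higher and 3 lower at 15 weeks, 1 higher and 3 lower at 4 weeks, 3 lower with anti-IL-33 and none called between anti-IL-33 and isotype lungs. Cardiac muscle markers were lower than in saline lungs in 4 of 4 at 15 weeks, 1 of 4 at 4 weeks and 3 of 4 with anti-IL-33. They summed to 116 to 323 CPM in anti-IL-33 lungs, 78.1 to 228 CPM in 15-week HDM lungs and 155 to 633 CPM in saline lungs. The source of these transcripts within the samples was not tested.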
